A study of Homo sapiens with 6 samples.

Results

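The 10 genes described here are the ID proteins ID1, ID2 and ID3 and 7 genes of the SMAD pathway, TGFB1, SMAD2, SMAD3, SMAD6, SMAD7, SKI and SKIL. They were taken by a list of gene symbols, with no threshold on a measured value, and are 10 of the 58735 genes in the deposited table. The list was chosen with earlier results of these data known. They were followed in SKM-1, a cell line from a human acute myeloid leukaemia, by RNA sequencing of 3 libraries after 48 h with celastrol and 3 libraries of the DMSO solvent control. Celastrol is a plant triterpenoid found in thunder god vine, and its dose was not stated in the labels. All 6 libraries come from the same line, kept in serum-containing medium, and no gene was altered in either treatment. The labels do not say whether the libraries stand for separate cultures, so the p-values measure only how far these libraries differ among themselves, which may be technical spread.

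TGF-beta and activin ligands act through receptor kinases that phosphorylate SMAD2 and SMAD3, while bone morphogenetic proteins (BMPs) act through SMAD1, SMAD5 and SMAD9, and both branches share SMAD4. SMAD6 and SMAD7 inhibit the receptors, and SKI and SKIL hold SMAD target genes silent. ID proteins are helix-loop-helix proteins with no DNA-binding region, which pair with E proteins and keep them off DNA, and ID genes are well known targets of BMP signalling. In blood cells, ID proteins are known for restraining differentiation and TGF-beta for restraining the growth of progenitors.

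Promoter sequences of 4 of the genes are shown first, the 3 ID genes because all were called higher, and SMAD6 because it holds the palindrome by which SMAD binding to DNA is best known. They are windows of 250 bases before the start annotated in RefSeq, on build GRCh38.p14, in the direction of the gene. Positions are counted backwards from that start. By GENCODE 29, which gives the gene positions below, exons of the gene itself cover 202 of the 250 bases for ID2 and all 250 for ID3. They cover 6 bases of the ID1 window and 8 of the SMAD6 window. The ID2 and ID3 stretches thus lie within the gene positions given below. Windows were found for 9 of the 10 genes. The table holds 35116 windows for all genes, and each was searched on both strands for 6 motifs. These were CAGAC, the SMAD-binding core, its palindrome GTCTAGAC, GGCGCC, a core bound by BMP-activated SMADs, the E-box CANNTG bound by E proteins, CCAAT, and TATAAA. Capitals mark matches to any of the 6.
ID1, chr20:31605039-31605288, plus strand: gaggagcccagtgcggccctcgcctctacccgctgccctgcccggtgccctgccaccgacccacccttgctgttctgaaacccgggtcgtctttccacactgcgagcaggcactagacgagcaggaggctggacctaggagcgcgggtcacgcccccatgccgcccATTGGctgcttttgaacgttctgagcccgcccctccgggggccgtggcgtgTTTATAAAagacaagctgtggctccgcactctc
ID2, positions -90 to -61, chr2:8681966-8681995, plus strand: tgccaccttccgCCAATggggacgaaggga
ID3, positions -160 to -131, chr1:23559632-23559661, minus strand: cggtcttcggcgtCAGACcagccggaggaa
SMAD6, chr15:66701986-66702235, plus strand: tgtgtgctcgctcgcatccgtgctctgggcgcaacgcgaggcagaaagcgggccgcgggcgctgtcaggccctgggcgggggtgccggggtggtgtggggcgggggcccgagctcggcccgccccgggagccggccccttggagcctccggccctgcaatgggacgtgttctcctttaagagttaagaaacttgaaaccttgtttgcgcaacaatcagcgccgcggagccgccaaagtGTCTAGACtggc

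In the ID1 window the capitals mark ATTGG, the CCAAT motif read on the other strand, at -84 to -80, and overlapping matches to TATAAA on both strands between -33 and -26. The ID2 stretch shows the CCAAT nearest the start, at -78 to -74, and the ID2 window holds 3 CCAAT matches in all and 1 E-box, CAGCTG, at -205. The ID3 stretch shows the single CAGAC of its window, at -147 to -143. SMAD6 carries GTCTAGAC at -12 to -5, which does not overlap a match to CAGAC. Among the genes not shown, CAGAC was matched 4 times in the 5 windows of SMAD3, 3 times in the 3 windows of SMAD7 and 1 time in the window of SKIL. Over all windows, CCAAT was found in 32.0%, TATAAA in 10.7%, CAGAC in 38.0%, CANNTG in 61.8% and GGCGCC in 16.4%, whereas GTCTAGAC was found in 64 windows, or 0.182%. A match describes these letters and does not show that a factor binds there.

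The deposited values are FPKM, fragments per kilobase scaled to a total set for each library, and they come in whole-read steps, so that reads could be recovered. Listed reads came to 15231742 to 16231066 in celastrol libraries and 13549187 to 15410904 in DMSO libraries. The total used by the authors was 1.04 to 1.05 times the listed reads in celastrol libraries and 0.963 to 0.994 times in DMSO libraries, which lowers celastrol values relative to DMSO values. Mitochondrially encoded genes took 1.37% to 1.85% of reads in celastrol libraries and 5.44% to 5.65% in DMSO libraries. The part of these differences in the results was not tested. Of 8 myeloid and pan-leukocyte markers, 5 had a mean of at least 1 FPKM (PTPRC, SPI1, CD33, KIT and LYZ), with summed levels of 55.3 to 60.7 FPKM with celastrol and 73.1 to 79.6 FPKM with DMSO. LYZ was at 16.5 to 18.8 FPKM with celastrol and 36.6 to 39.2 FPKM with DMSO, and KIT at 0.983 to 1.16 FPKM with celastrol and 5.12 to 5.47 FPKM with DMSO, while PTPRC was at 14.0 to 15.9 FPKM with celastrol and 11.1 to 13.8 FPKM with DMSO. CD34 was at 0 and MPO near 0. None of 5 endothelial markers reached 1 FPKM, with sums of 0.129 to 0.254 FPKM with celastrol and 0.0785 to 0.150 FPKM with DMSO and CDH5 and VWF at 0. None of 5 fibroblast markers did, with sums of 0.401 to 0.512 FPKM with celastrol and 0.283 to 0.456 FPKM with DMSO. Of 5 epithelial markers 4 reached it, with sums of 289 to 324 FPKM with celastrol and 261 to 299 FPKM with DMSO and CDH1 near 0. Within that sum EPCAM was at 15.0 to 16.4 FPKM with celastrol and 30.3 to 33.8 FPKM with DMSO, and KRT8 at 83.3 to 109 FPKM with celastrol and 51.8 to 60.8 FPKM with DMSO. Of 5 lymphoid markers 3 reached 1 FPKM, with sums of 15.2 to 15.6 FPKM with celastrol and 8.33 to 10.1 FPKM with DMSO. The part of other cell types in the results was not tested. In bulk RNA, fewer cells of a kind and less RNA per cell cannot be told apart.

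All 10 genes were among the 12685 with a mean of at least 1 FPKM, which were tested with limma on log2(FPKM + 0.1), and a call means an adjusted p under 0.05. With celastrol, 4 of the 10 rose (ID1, ID2, ID3 and TGFB1) and 0 fell, so 40% were called, against 29.5% of all genes tested. Over all genes tested, 15.3% were called higher and 14.2% were called lower. At an unadjusted p under 0.05, 4 of the 10 were higher and 1, SKIL, was lower, against 22.2% higher and 19.6% lower of all genes tested. Limma-voom on recovered reads called 6 higher and 0 lower, against 28.8% higher and 11.5% lower of all genes tested. The 3 celastrol values and the 3 DMSO values did not overlap for 6 of the 10 genes, or 60%, against 47.3% of all genes tested. The 4 called genes are among these 6, together with SMAD6 (higher) and SKIL (lower). The median log2 fold change of the 10 genes was 0.29, and that of all genes tested was 0.02. Because the 10 genes were chosen with earlier results of these data known, these counts describe them and are not a test.

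**Figure D1:**
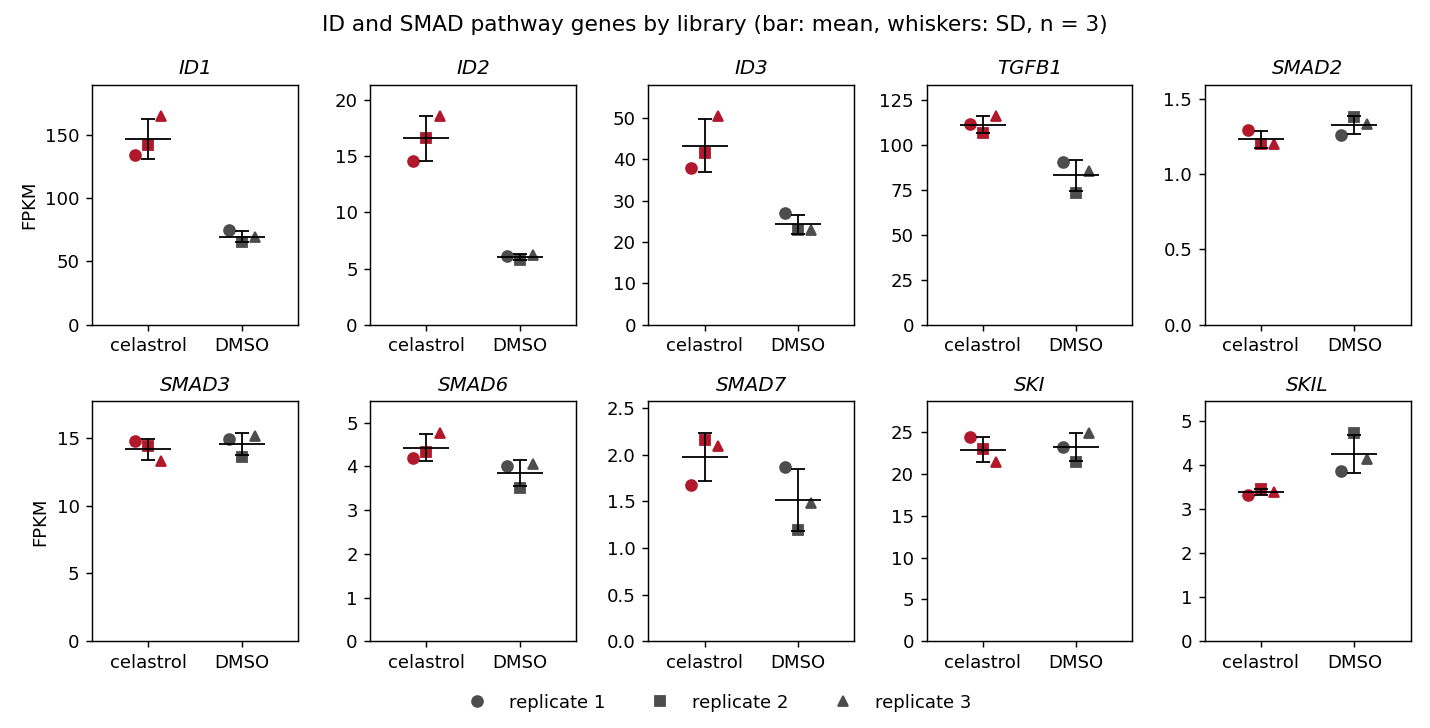
FPKM of the 10 genes (vertical axes, from 0, each with its own scale) in the 3 celastrol libraries (red, left) and the 3 DMSO libraries (grey, right); the symbol gives the replicate number, bars the mean and whiskers the SD. All celastrol points of ID1, ID2, ID3, TGFB1 and SMAD6 lie above all DMSO points, those of SKIL lie below, and the other 4 genes overlap.

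The ID genes rose the most of the 10. ID1 (ENSG00000125968, plus strand of chromosome 20, 31605283 to 31606515) is the most abundant of the 3, and its protein is best known in blood and endothelial progenitors. It had 133.9, 142 and 165 FPKM in the celastrol libraries, against 74.5, 65.4 and 69.1 FPKM in the DMSO libraries. Every celastrol library lay well above every DMSO library, and celastrol replicate 3 was the highest. The means were 147 ± 16.0 FPKM with celastrol and 69.7 ± 4.61 FPKM with DMSO (SD, n = 3 each), 2.11-fold higher, with a log2 fold change of 1.07 (SE 0.09, 95% interval 0.85 to 1.29, limma adjusted p = 0.000383). These values rest on 2605 to 3419 reads per celastrol library and 1085 to 1323 per DMSO library.

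ID2 (ENSG00000115738, plus strand of chromosome 2, 8678845 to 8684453) encodes a partner of E proteins known from lymphoid and dendritic cell development. It was the lowest of the 3 ID genes and rose the furthest. It had 14.6, 16.6 and 18.6 FPKM with celastrol, against 6.14, 5.73 and 6.25 FPKM with DMSO. The DMSO libraries lay close together and far below the celastrol libraries. The means were 16.6 ± 1.98 FPKM with celastrol and 6.04 ± 0.278 FPKM with DMSO (SD, n = 3 each), 2.75-fold higher, with a log2 fold change of 1.44 (SE 0.10, 95% interval 1.21 to 1.67, limma adjusted p = 0.000154). Of all genes tested, 0.954% had a higher log2 fold change than ID2, and 1.86% a higher one than ID1. The exons of ID2 share 38 bases, 1.72% of their length, with the antisense gene ID2-AS1, which was at 0.229 to 0.923 FPKM.

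ID3 (ENSG00000117318, minus strand of chromosome 1, 23557918 to 23559794) encodes the ID protein known as a brake on E proteins in B and T lymphocytes. It had 38.0, 41.6 and 50.5 FPKM with celastrol, against 27.0, 22.9 and 22.9 FPKM with DMSO. The groups did not overlap, and celastrol replicate 3 was again the highest library. The means were 43.4 ± 6.40 FPKM with celastrol and 24.3 ± 2.34 FPKM with DMSO (SD, n = 3 each), 1.79-fold higher, with a log2 fold change of 0.83 (SE 0.12, 95% interval 0.55 to 1.10, limma adjusted p = 0.00261).

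The shares of the 3 ID genes in their sum are given next. Their FPKM summed to 187, 200.4 and 234 in the celastrol libraries, against 108, 94.0 and 98.3 in the DMSO libraries, with no overlap. ID2 made up 7.84% to 8.29% of that sum with celastrol and 5.71% to 6.36% with DMSO. ID3 made up 20.4% to 21.6% with celastrol and 23.3% to 25.1% with DMSO, and ID1 made up 70.5% to 71.8% with celastrol and 69.2% to 70.3% with DMSO. The share of ID3 was therefore lower in every celastrol library and the shares of ID1 and ID2 higher. Ratios within a library do not depend on its scaling, and 8 of them were compared by two-sided exact permutation tests, in which 3 against 3 libraries cannot give a p below 0.1. The ratio of ID2 to ID3 was 0.385, 0.399 and 0.368 with celastrol, against 0.228, 0.250 and 0.273 with DMSO (exact p = 0.1, 0.2 adjusted over the 8). The ratio of ID1 to ID3 was 3.52, 3.41 and 3.27 with celastrol, against 2.76, 2.85 and 3.01 with DMSO (exact p = 0.1, adjusted 0.2). The ratio of ID2 to ID1 was 0.109, 0.117 and 0.113 with celastrol, against 0.0824, 0.0876 and 0.0905 with DMSO (exact p = 0.1, adjusted 0.2). In all 3 ratios each celastrol library was above each DMSO library, at the smallest p that the design allows.

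**Figure D2:**
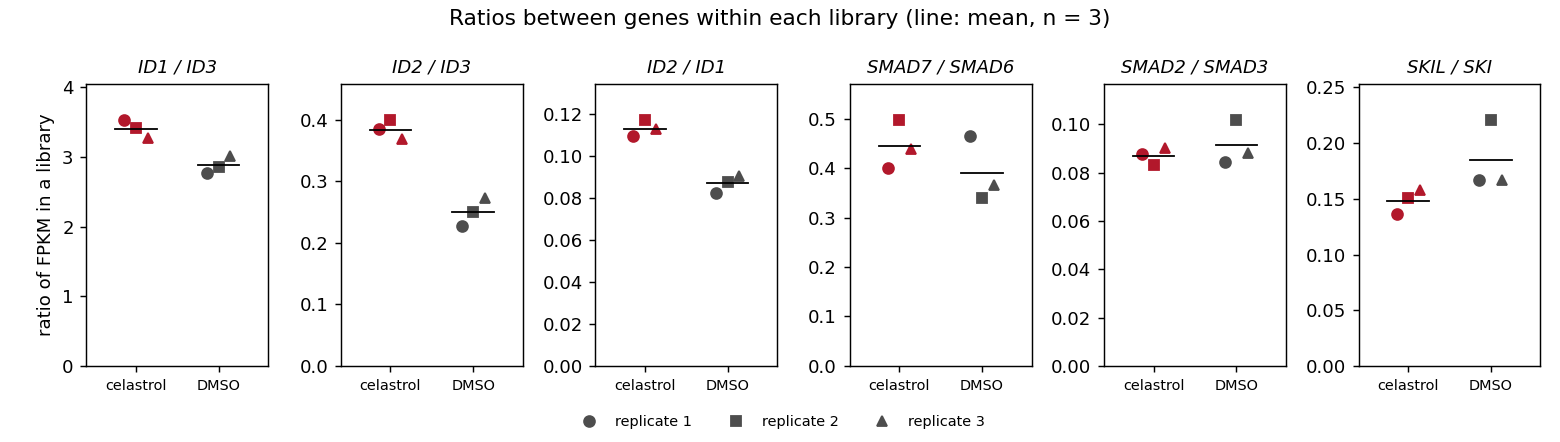
Ratio of the FPKM of 2 genes within a library (vertical axes, from 0) for 6 gene pairs, celastrol in red on the left and DMSO in grey on the right; symbols give the replicate number and lines the mean. The 3 ratios between ID genes are higher in every celastrol library and SKIL to SKI is lower in every one, while SMAD7 to SMAD6 and SMAD2 to SMAD3 overlap.

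TGFB1 (ENSG00000105329, minus strand of chromosome 19, 41301587 to 41353911) encodes the TGF-beta 1 ligand. It had 111, 106 and 116 FPKM with celastrol, against 90.3, 73.4 and 85.3 FPKM with DMSO. The groups did not overlap, and DMSO replicate 2 was the lowest library. The means were 111 ± 4.72 FPKM with celastrol and 83.0 ± 8.66 FPKM with DMSO (SD, n = 3 each), 1.34-fold higher, with a log2 fold change of 0.43 (SE 0.09, 95% interval 0.22 to 0.63, limma adjusted p = 0.0112). TGFB1 is the best covered of the 10 genes, with 5690 to 6311 reads per celastrol library and 3202 to 4210 per DMSO library. Its exons share 215 bases, 6.64% of their length, with HNRNPUL1 on the opposite strand, which was at 40.3 to 55.0 FPKM. The labels do not state whether reads kept their strand, so reads of both genes in these bases may not be told apart.

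The signal-carrying SMADs were not called. SMAD3 (ENSG00000166949, plus strand of chromosome 15, 67063763 to 67195195) binds DNA itself and is a main carrier of TGF-beta signals. It had 14.8, 14.4 and 13.3 FPKM with celastrol, against 14.9, 13.6 and 15.1 FPKM with DMSO. The groups overlapped, and the log2 fold change was -0.04 (95% interval -0.22 to 0.14, limma adjusted p = 0.745). SMAD2 (ENSG00000175387, minus strand of chromosome 18, 47808957 to 47931146) carries the same signals but in its common form does not bind DNA itself. It had 1.29, 1.20 and 1.20 FPKM with celastrol, against 1.26, 1.38 and 1.33 FPKM with DMSO, with overlap, and the log2 fold change was -0.10 (95% interval -0.54 to 0.34, limma adjusted p = 0.724). The interval of SMAD2 is wide although its libraries lay close together (SD 0.0550 FPKM with celastrol and 0.0594 FPKM with DMSO). Its SE was 0.19 in this fit and 0.089 with limma-voom on recovered reads. The low FPKM of SMAD2 comes with a gene length of 36366 bases, most of it from 1 annotated transcript of 34526 bases. If all its reads lay on the 13772 bases left without that transcript, they would be worth 3.16 to 3.42 FPKM with celastrol. With DMSO they would be worth 3.33 to 3.65 FPKM. These are upper limits, because reads that lie only in the removed bases are still counted. The ratio of SMAD2 to SMAD3 was 0.0876, 0.0830 and 0.0904 with celastrol, against 0.0846, 0.102 and 0.0882 with DMSO, and overlapped (exact permutation p = 0.6).

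The inhibitory SMADs had higher means with celastrol, but neither was called. SMAD6 (ENSG00000137834, plus strand of chromosome 15, 66702228 to 66782848), which mainly blocks BMP receptors, had 4.19, 4.34 and 4.77 FPKM with celastrol, against 4.02, 3.51 and 4.05 FPKM with DMSO. The groups did not overlap, though celastrol replicate 1 and DMSO replicate 3 lay close. The log2 fold change was 0.20 (SE 0.10, 95% interval -0.03 to 0.42, limma adjusted p = 0.168). SMAD7 (ENSG00000101665, minus strand of chromosome 18, 48919853 to 48952052), which blocks the TGF-beta receptor, had 1.67, 2.15 and 2.09 FPKM with celastrol, against 1.86, 1.20 and 1.48 FPKM with DMSO. DMSO replicate 1 lay above celastrol replicate 1, and the log2 fold change was 0.37 (SE 0.20, 95% interval -0.10 to 0.84, limma adjusted p = 0.201). SMAD7 is the least covered of the 10 genes, with 133 to 180 reads per celastrol library and 81 to 135 per DMSO library. Both genes passed the threshold when values were rescaled to TPM, length-normalised values that sum to the same total in every library (log2 fold change 0.44, limma adjusted p = 0.00718 for SMAD6, and 0.63, 0.0382 for SMAD7), and with limma-voom on recovered reads (0.30, 0.0218 and 0.49, 0.0318). SMAD6 also passed on listed reads (0.29, 0.0445). The median of all genes tested was 0.26 with TPM, 0.12 with limma-voom and 0.12 on listed reads, against 0.02 as deposited. Across these settings, the deposited values and quantile normalization, SMAD6 stood 0.17 to 0.18 and SMAD7 0.35 to 0.41 above that median.

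Neither co-repressor was called. SKIL (ENSG00000136603, plus strand of chromosome 3, 170357678 to 170396835), also known as SnoN, is itself a TGF-beta target and its protein is degraded when the pathway is active. It had 3.32, 3.47 and 3.39 FPKM with celastrol, against 3.87, 4.73 and 4.15 FPKM with DMSO. All celastrol libraries lay close together below all DMSO libraries. The means were 3.39 ± 0.0724 FPKM with celastrol and 4.25 ± 0.439 FPKM with DMSO (SD, n = 3 each), with a log2 fold change of -0.31 (SE 0.10, 95% interval -0.54 to -0.08), and the limma adjusted p of 0.0502 just missed the threshold. It passed without DMSO replicate 1 (log2 fold change -0.38, limma adjusted p = 0.0334) and after quantile normalization (-0.32, 0.0441). It did not pass under the other 12 alternatives, among them TPM (-0.08, 0.596), listed reads (-0.22, 0.154) and limma-voom (-0.22, 0.111). SKI (ENSG00000157933, plus strand of chromosome 1, 2228695 to 2310119) had 24.4, 23.0 and 21.5 FPKM with celastrol, against 23.3, 21.5 and 24.9 FPKM with DMSO. These values overlapped, and the log2 fold change was -0.02 (95% interval -0.21 to 0.18, limma adjusted p = 0.891). The ratio of SKIL to SKI was 0.136, 0.151 and 0.158 with celastrol, against 0.166, 0.220 and 0.166 with DMSO (exact permutation p = 0.1, adjusted 0.2), with no overlap.

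The order of the 10 genes by mean FPKM, a level per length, differed between treatments at 3 places. The order with celastrol was ID1, TGFB1, ID3, SKI, ID2, SMAD3, SMAD6, SKIL, SMAD7 and SMAD2. With DMSO it was TGFB1, ID1, ID3, SKI, SMAD3, ID2, SKIL, SMAD6, SMAD7 and SMAD2. ID1 was above TGFB1 in 3 of 3 celastrol libraries and in 0 of 3 DMSO libraries. ID2 was above SMAD3 in 2 of 3 celastrol libraries and 0 of 3 DMSO libraries, and SMAD6 was above SKIL in 3 of 3 celastrol and 1 of 3 DMSO libraries. ID3 was above SKI, and SMAD7 above SMAD2, in 3 of 3 celastrol and 2 of 3 DMSO libraries. Of these 5 pairs, ID1 and TGFB1 alone stood in one order in every celastrol library and in the other in every DMSO library. FPKM depends on the gene length used. With all reads kept and divided by the exon bases left without each gene's longest transcript, TGFB1 would stand above ID1 in both treatments. Those bases are 1014 of 3238 for TGFB1 and 994 of 1233 for ID1. Reads that lie only in the removed bases are still counted, so the values that follow are upper limits. The order on reads of the kept bases alone was not tested. With celastrol, TGFB1 would be at 340 to 370 FPKM and ID1 at 166 to 205 FPKM. With DMSO, they would be at 235 to 288 FPKM and 81.1 to 92.5 FPKM. The neighbours whose ranges overlapped were ID2 and SMAD3 with celastrol, and TGFB1 and ID1, ID3 and SKI, SKIL and SMAD6, and SMAD7 and SMAD2 with DMSO.

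Because the deposited scaling differs between treatments, the fold changes were also set against the median of all genes under each scaling. That median was 0.02 as deposited, 0.26 after rescaling to TPM, 0.12 on listed reads, 0.12 with limma-voom and 0.01 after quantile normalization. Of all calls, 52.0% were higher with celastrol as deposited, against 86.6% after rescaling to TPM, 70.0% on listed reads, 71.4% with limma-voom and 50.3% after quantile normalization. ID1, ID2, ID3 and TGFB1 were called higher under all 5. Relative to the median, ID2 stood 1.40 to 1.43 higher on the log2 scale, ID1 1.05 to 1.10, ID3 0.80 to 0.81 and TGFB1 0.40 to 0.42 across the 5. The fold change of SMAD3 and SKI changed sign between scalings, at -0.04 and -0.02 as deposited and 0.20 and 0.22 after rescaling to TPM, and that of SMAD2 was -0.10 as deposited and 0.13 after rescaling to TPM. SKIL was at -0.08 after rescaling to TPM, and between -0.34 and -0.33 relative to the median under the 5 settings.

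**Figure D3:**
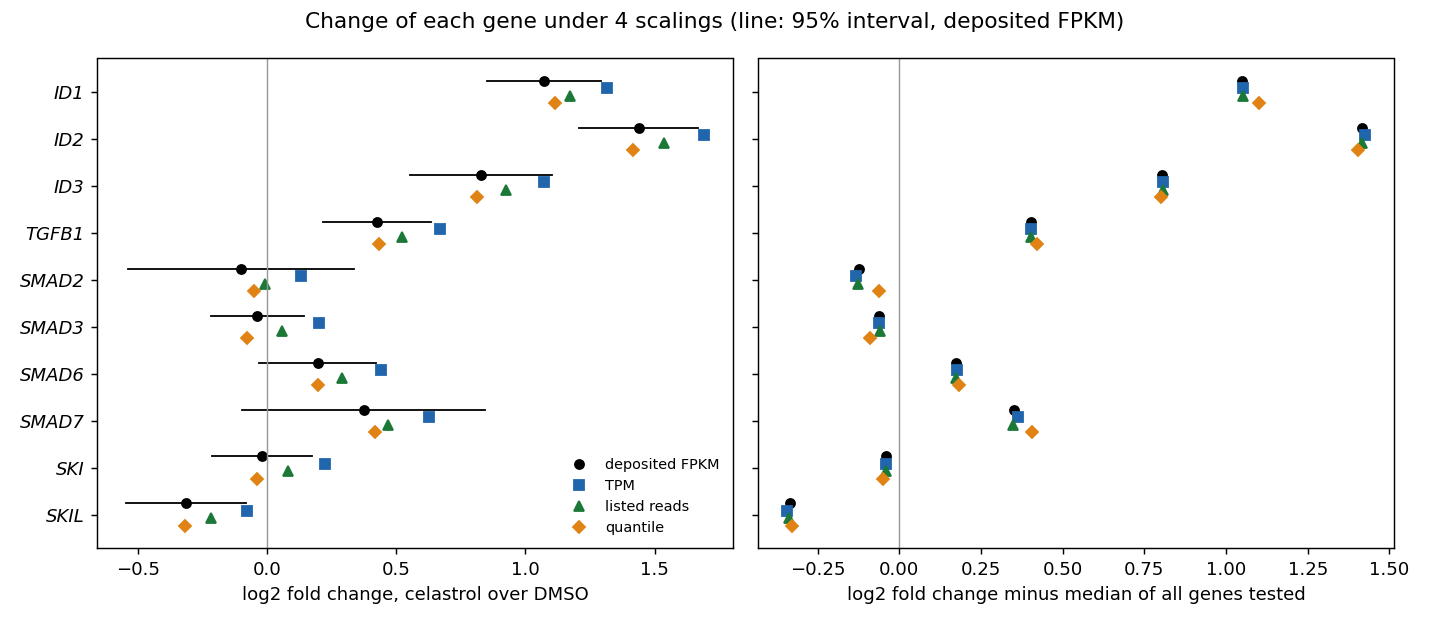
Log2 fold change, celastrol over DMSO, of each of the 10 genes (rows) under 4 scalings (symbols), as fitted on the left and after subtracting the median of all genes tested on the right; lines on the left are 95% intervals for the deposited FPKM. ID1, ID2, ID3 and TGFB1 lie above 0 in both panels under every scaling shown, SMAD2, SMAD3 and SKI cross 0 on the left, and each gene's symbols draw close together on the right.

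The genes whose log2 values ran most like those of the 4 called genes over the 6 libraries were looked up among 6975 protein-coding genes with a mean of at least 5 FPKM. Among the closest were PKM and KIAA2013 for ID1, CD53, SERINC3 and BAIAP3 for ID2, PHC2, WDR60 and KRT8 for ID3, and TMEM203, TFPT and ORAI1 for TGFB1. With 6 libraries in 2 treatments, likeness is common, and Pearson r was at least 0.95 for 553 genes with ID1, 520 with ID2, 462 with ID3 and 434 with TGFB1. The genes share these 6 libraries and their scaling.

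The other genes of the pathway were taken as 8 lists by role, with 115 genes in all, of which 62 were tested. Of these 12 rose and 9 fell, or 33.9%, which is near the 29.5% of all genes tested, and their median log2 fold change was 0.02, as over all genes. The list of textbook TGF-beta target genes holds 16 genes, of which 8 were tested. The others had a mean under 1 FPKM, among them CCN2, CDKN2B, TGFBI and SNAI2 at 0 in all 6 libraries. Of the 8 tested genes 5 rose and 0 fell, with a median of 0.44. At an unadjusted p under 0.05, 6 were higher and 0 lower, and limma-voom called 8 higher and 0 lower. Over all genes tested, 15.3% were called higher and 14.2% lower, with a median of 0.02. Limma-voom called 28.8% higher and 11.5% lower, and 22.2% were higher and 19.6% lower at an unadjusted p under 0.05. The lists were chosen with earlier results of these data known, so these counts describe the lists and are not a test of the pathway. SNAI1, a repressor of epithelial genes, had 13.5, 15.6 and 12.4 FPKM with celastrol, against 7.33, 7.05 and 7.42 FPKM with DMSO (log2 fold change 0.91, limma adjusted p = 0.000692). CDKN1A, the cell cycle inhibitor p21, which also answers to p53, had 8.50, 7.29 and 8.11 FPKM with celastrol, against 4.83, 4.41 and 4.65 FPKM with DMSO (0.77, adjusted p = 0.000973). In both genes the groups were far apart. BHLHE40, a bHLH repressor, had a log2 fold change of 0.47 (adjusted p = 0.00409), and KLF10, named after its values were seen, one of 0.41 (adjusted p = 0.0404, and 0.114 with no filter on low values). In the list of BMP target genes, 5 of 9 were tested, and HAMP, ATOH8, SMAD9 and MSX2 had a mean under 1 FPKM. Of the 5 tested, 1 rose and 0 fell, with a median of 0.36. By limma-voom 4 rose and 0 fell, and at an unadjusted p under 0.05, 3 were higher and 0 lower. With 5 genes, 1 call is near the 15.3% of all genes called higher. The shares of all genes higher were 28.8% by limma-voom and 22.2% unadjusted. The gene that rose was GATA2, a transcription factor of blood stem cells and progenitors, with 93.2, 84.6 and 78.4 FPKM with celastrol, against 66.9, 50.8 and 60.4 FPKM with DMSO (0.53, adjusted p = 0.0120).

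Among receptors and co-receptors, 2 of 11 tested genes rose and 2 fell. By limma-voom 3 rose and 2 fell, and at an unadjusted p under 0.05, 3 were higher and 3 lower. Of all genes tested, 15.3% rose and 14.2% fell (28.8% and 11.5% by limma-voom, and 22.2% and 19.6% unadjusted). TGFBR1, the type I TGF-beta receptor, had 18.1, 18.6 and 16.7 FPKM with celastrol, against 9.77, 12.5 and 12.3 FPKM with DMSO (log2 fold change 0.63, adjusted p = 0.00515). ACVR1B, a type I activin receptor, had 9.04, 9.52 and 9.99 FPKM with celastrol, against 6.73, 5.59 and 5.80 FPKM with DMSO (0.65, adjusted p = 0.00248). Both were higher in every celastrol library. AMHR2, the receptor of anti-Muellerian hormone, had 7.58, 7.14 and 6.76 FPKM with celastrol, against 17.4, 16.8 and 18.4 FPKM with DMSO (-1.28, adjusted p = 8.91e-05). HJV, the BMP co-receptor hemojuvelin, had 2.59, 1.79 and 1.70 FPKM with celastrol, against 4.68, 3.66 and 4.42 FPKM with DMSO (-1.05, adjusted p = 0.00498). TGFBR2, the type II TGF-beta receptor, was under the limit for testing. It had 0.269, 0.333 and 0.240 FPKM with celastrol and 0.428, 0.505 and 0.500 FPKM with DMSO.

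Of 4 tested ligands, 1 rose and 1 fell, where 15.3% of all genes tested rose and 14.2% fell. INHBE, an inhibin beta subunit whose gene also answers to the integrated stress response, had 7.23, 7.93 and 9.80 FPKM with celastrol, against 30.7, 20.9 and 23.6 FPKM with DMSO, 3.01-fold lower (log2 fold change -1.57, adjusted p = 0.000661). GDF11, a TGF-beta family ligand, had 5.09, 5.43 and 5.50 FPKM with celastrol, against 3.88, 3.77 and 4.02 FPKM with DMSO (0.45, adjusted p = 0.00622). The groups did not overlap for either ligand. Of 6 tested genes that store or activate latent TGF-beta, 1 rose and 1 fell, beside the same 15.3% and 14.2% of all genes. ITGAV, the integrin alpha V chain, rose (0.43, adjusted p = 0.00666). LTBP1, which binds latent TGF-beta to the matrix, fell (-0.35, adjusted p = 0.0101), a call that ended after rescaling to TPM (0.209).

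Among 11 tested SMADs and nuclear partners outside the 10 genes, 0 rose and 2 fell (1 and 1 by limma-voom, and 0 and 2 at an unadjusted p under 0.05). Of all genes tested, 15.3% rose and 14.2% fell (28.8% and 11.5% by limma-voom, and 22.2% and 19.6% unadjusted). FOXH1, a DNA-binding partner of SMAD2, had 1.22, 1.11 and 0.95 FPKM with celastrol, against 3.30, 2.76 and 3.49 FPKM with DMSO, 2.92-fold lower (log2 fold change -1.46, SE 0.16, adjusted p = 0.000921), on 40 to 48 reads per celastrol library and 93 to 130 per DMSO library. The co-repressor TGIF2 fell by 0.36 on the log2 scale (adjusted p = 0.0272), a call that held under 5 of 14 alternatives and ended, among others, after rescaling to TPM (0.360). Of the carriers of BMP signals, SMAD5 had 9.34, 8.83 and 8.51 FPKM with celastrol, against 7.09, 9.06 and 8.64 FPKM with DMSO, and was not called (adjusted p = 0.448). SMAD1 was at the limit of detection, with 0, 1 and 0 reads in the celastrol libraries and 0 reads in each DMSO library. For SMAD1, 3 reads would be 0.0294 to 0.0368 FPKM. SMAD9 had a mean under 1 FPKM and was not tested, with 9, 11 and 7 reads with celastrol and 2, 5 and 3 with DMSO. Of 14 tested ubiquitin ligases, phosphatases and antagonists, WWP1 (0.43, adjusted p = 0.00889) and TOB1 (0.26, adjusted p = 0.0279, and 0.0537 after quantile normalization) rose. NEDD4L, a ubiquitin ligase that marks activated SMAD2 and SMAD3 for degradation, fell, with 1.77, 1.79 and 1.82 FPKM with celastrol, against 3.10, 2.79 and 3.04 FPKM with DMSO (-0.70, adjusted p = 0.00421). In this list of 14, 2 genes rose and 1 fell, where 15.3% of all genes tested rose and 14.2% fell.

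Of 5 tested E proteins and haematopoietic bHLH factors, the partners of the ID proteins and of E proteins, 0 rose and 2 fell (1 and 2 by limma-voom, and 0 and 2 at an unadjusted p under 0.05). The shares of all genes tested were 15.3% higher and 14.2% lower (28.8% and 11.5% by limma-voom, and 22.2% and 19.6% unadjusted). The E protein TCF12 had 9.85, 10.8 and 9.91 FPKM with celastrol, against 12.3, 14.2 and 12.7 FPKM with DMSO (log2 fold change -0.36, adjusted p = 0.0155). LYL1, a bHLH factor of blood progenitors, had 79.8, 75.7 and 71.9 FPKM with celastrol, against 101, 87.5 and 97.6 FPKM with DMSO (-0.33, adjusted p = 0.0184). Both were lower in every celastrol library than in any DMSO library. Neither call held after rescaling to TPM (adjusted p = 0.335 for TCF12 and 0.362 for LYL1). The other tested genes of this list were not called. TAL1 had 25.7, 26.4 and 25.9 FPKM with celastrol, against 25.1, 23.6 and 24.6 FPKM with DMSO, higher in every celastrol library (limma adjusted p = 0.314). TCF4 was also higher in every celastrol library (limma adjusted p = 0.463), and the groups of TCF3 overlapped (0.580). The fourth ID gene, ID4, had 0 reads in all 6 libraries, where 3 reads would be 0.0761 to 0.0951 FPKM.

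**Figure D4:**
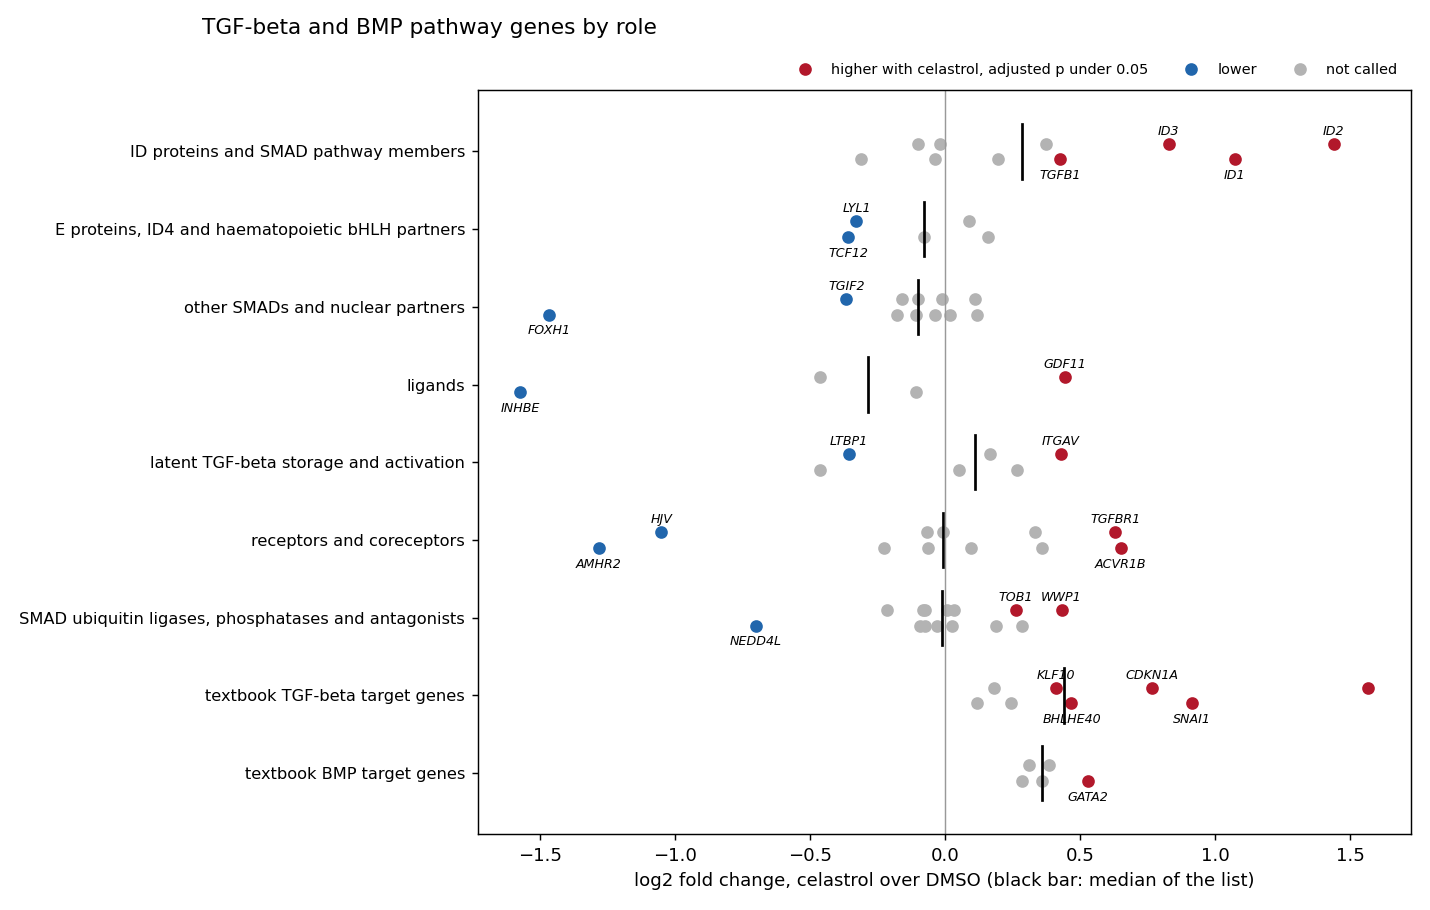
Log2 fold change, celastrol over DMSO (horizontal axis), of each tested gene of the 10 and of the 8 pathway lists (rows), with genes called higher in red, called lower in blue and not called in grey; black bars are list medians, and not every called gene is labelled. The TGF-beta target list, chosen like the others with earlier results of these data known, has the highest median, 0.44. The 4 called genes of the first row all lie above 0.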

How the data were processed

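RNA from 6 SKM-1 libraries was sequenced, 3 per treatment, with groups and replicate numbers from the sample titles. The deposited values are FPKM per gene, per the file headers. HISAT2 2.0.5, featureCounts 1.5.0-p3 and GRCh38 are named in the submitters' processing notes, without settings. All 58735 gene identifiers and positions matched GENCODE release 29. FPKM times gene length gave whole reads for every value above 0, within 0.001 of a read. The sources used here do not give how the authors set the library total or whether reads kept their strand.

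Tests used limma 3.58.1 in R 4.3.3. The model was limma-trend on log2(FPKM + 0.1) with treatment as the single term, two-sided, for 12685 genes with a mean FPKM of at least 1, with Benjamini-Hochberg adjustment over all of them and a threshold of 0.05. Adjusted p-values in the text come from it unless another setting is named. Fold changes on this scale understate changes of low genes. Means, SDs and fold values are of FPKM itself. The script was tested on simulated data.

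Named are all 10 genes and, from each list, up to 4 called genes by size. Some genes that these rules take are not reported here. Some list genes stand in 2 lists. The genes and lists were chosen with earlier results of these data known. Pairs of libraries differed by a chi-square of recovered reads of 4.01 to 13.4 per gene within a treatment and 49.3 to 77.7 across, so none repeated another. Alternatives were other pseudocounts, no filter, other scalings, limma-voom, a replicate block and leaving out each library. Promoter sequences are from RefSeq.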

Additional observations from a re-analysis of the deposited data

How the results depend on the processing

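ID1, ID2, ID3 and TGFB1 were called higher under all 14 alternatives, with a highest limma adjusted p of 0.00376, 0.00177, 0.0151 and 0.0399, and 4 of the 10 genes were called higher without any single library. The count called lower was 0, and 1 (SKIL) after quantile normalization and without DMSO replicate 1, a range of 0 to 1 over the left-out libraries. Directions turned where a value lay near 0. SMAD2 was at 0.13 on the log2 scale after rescaling to TPM. SMAD3 was at 0.20 after rescaling to TPM, 0.060 on listed reads, 0.060 with limma-voom and 0.0070 without celastrol replicate 3, and leaving out each library gave -0.085 to 0.0070. SKI was at 0.22 after rescaling to TPM, 0.080 on listed reads, 0.080 with limma-voom, 0.029 without celastrol replicate 3 and 0.034 without DMSO replicate 3, and leaving out each library gave -0.072 to 0.034. None of these was called.

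Over all genes tested, 1947 were called higher and 1797 lower. Rescaling to TPM gave 5266 higher and 813 lower, listed reads 3024 higher and limma-voom 3650 higher. These alternatives move the median of all genes, as given above. Leaving out 1 library gave 1125 to 1937 higher and 987 to 1767 lower; with 1 library fewer, fewer samples enter the fit. The count fell by over 1.5 times without celastrol replicate 2 (1128 higher, 1129 lower), without celastrol replicate 3 (1228 higher) and without DMSO replicate 3 (1125 higher, 987 lower).

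Same-numbered libraries did not deviate together (correlations of -0.03 to 0.03), and not every library correlated best with its own number. The labels give only the shared number, and these correlations cannot show whether such libraries were handled together. With a replicate block, 1776 genes were called higher and 1617 lower, and 4 of the 10 genes higher and 0 lower.

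Of the 20 other genes that the rule takes, 15 were called without each library in turn. The other 5 lost their call without at least 1 library. Limma adjusted p was 0.0543, 0.0510 and 0.0512 for TCF12 without celastrol replicates 1 and 3 and DMSO replicate 3. It was 0.0650, 0.0570 and 0.0813 for LYL1 without celastrol replicates 2 and 3 and DMSO replicate 3, and 0.0543 for LTBP1 without DMSO replicate 3. TGIF2 was at 0.0523 to 0.0700 when any single library other than celastrol replicate 1 was left out, and TOB1 at 0.0577 to 0.113 when a celastrol library or DMSO replicate 3 was left out. After rescaling to TPM it was 0.335 for TCF12, 0.362 for LYL1, 0.360 for TGIF2 and 0.209 for LTBP1. On listed reads it was 0.0576 for TCF12 and 0.0740 for TGIF2, with no filter 0.0524 for LYL1 and 0.0726 for TGIF2, and with limma-voom 0.0584 for TGIF2. TOB1 was at 0.0537 after quantile normalization and 0.0511 with the replicate block, which ended no other call among these 20. KLF10, named outside the rule, lost its call with no filter (0.114), with the replicate block (0.0747) and at 0.0641 to 0.109 when any single library other than celastrol replicate 3 was left out. The cause was not tested. SMAD7 rests on the fewest reads of the 10 genes, 81 in its thinnest library.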
